A study of Mus musculus with 6 samples.

Results

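The diet effect in mouse liver was followed at ZT2, the time 2 h after lights on, by setting a pool from mice on a high-fat diet (HFD) against a pool from mice on regular chow (RC). Both members of the comparison were chosen by their titles, and they are 2 of the 6 arrays of the series. The other arrays hold a nobiletin arm, which is not described here, and the same arms at ZT14, 2 h after lights off. The HFD and RC pools of ZT14 were used only to see which ZT2 differences were also found at that time.

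All mice were C57BL/6J, were 18 weeks old and ate freely, with lights on for 12 h and off for 12 h each day. The HFD group ate the high-fat diet and was given vehicle by mouth, over a treatment of 10 weeks. The RC group is labelled as chow with vehicle. Each pool held liver RNA of 4 mice and was hybridised to 1 Illumina bead array. The differences between mice cannot be seen in such a pool, though they still enter its level. There is no replicate on either side. The labels used here state neither the sex of the mice nor what the diets contained.

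Mice eat mainly in the dark, so the first hours of light are the start of the fasting phase in a chow-fed animal, when hepatocytes shift from storing nutrients towards oxidizing fat. The hepatocyte clock runs through this change: the activators Bmal1 (gene symbol Arntl) and Clock drive Per, Cry, Rev-erb and Dbp genes, whose products feed back on them. A high-fat diet is known to load hepatocytes with triglyceride and to spread food intake into the light phase, and it alters the daily cycling of many liver transcripts.

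A probe was called detected when its detection p, computed by the scanner software against negative controls, lay under 0.01. Of 45281 probes, 14470 (32.0%) were detected in HFD and 13198 (29.1%) in RC at ZT2, with median raw signals of 62.4 and 59.2. Precision is limited by there being 1 array for each diet and time. Of 10 hepatocyte markers on the array, 8 were detected in HFD and 8 in RC, including Ttr, Apoa1 and Hnf4a. The 1 probe named for albumin lay near background, at 4.88 in HFD and 5.39 in RC, and is no measure of that transcript. Levels are given as log2 of the background-corrected and quantile-normalized signal, on which the lowest detected probe stood at 4.85 in HFD and 5.03 in RC and the brightest probe at 14.60. A probe's level was not set against that of another probe.

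Differences at ZT2 could be computed for 8802 genes, as the log2 level in HFD minus that in RC. Of these genes, 174 were at least 2-fold higher in HFD (1.98% of the genes measured) and 106 were at least 2-fold lower (1.2%). The median difference was 0.02 as measured, which quantile normalization of the arrays holds near 0. The 5th to 95th percentile, with the lower bounds described below, lay at -0.60 to 0.66. At least 4-fold differences were found for 32 genes higher and 17 lower, and at least 8-fold differences for 14 higher and 1 lower. Where a gene was detected on 1 of the arrays only, its difference is a lower bound, taken against the dimmest detected probe of the other array, and 29 of the higher and 8 of the lower genes were counted at such a bound. With 1 pool on each side no test was possible within the time, so no p-value is given and none of these differences has been weighed against the spread between mice. The higher genes made up 62.1% of the 2-fold differences, and 89.2% when the arrays were scaled by their medians, which moved the median of all genes to 0.34.

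**Figure D1:**
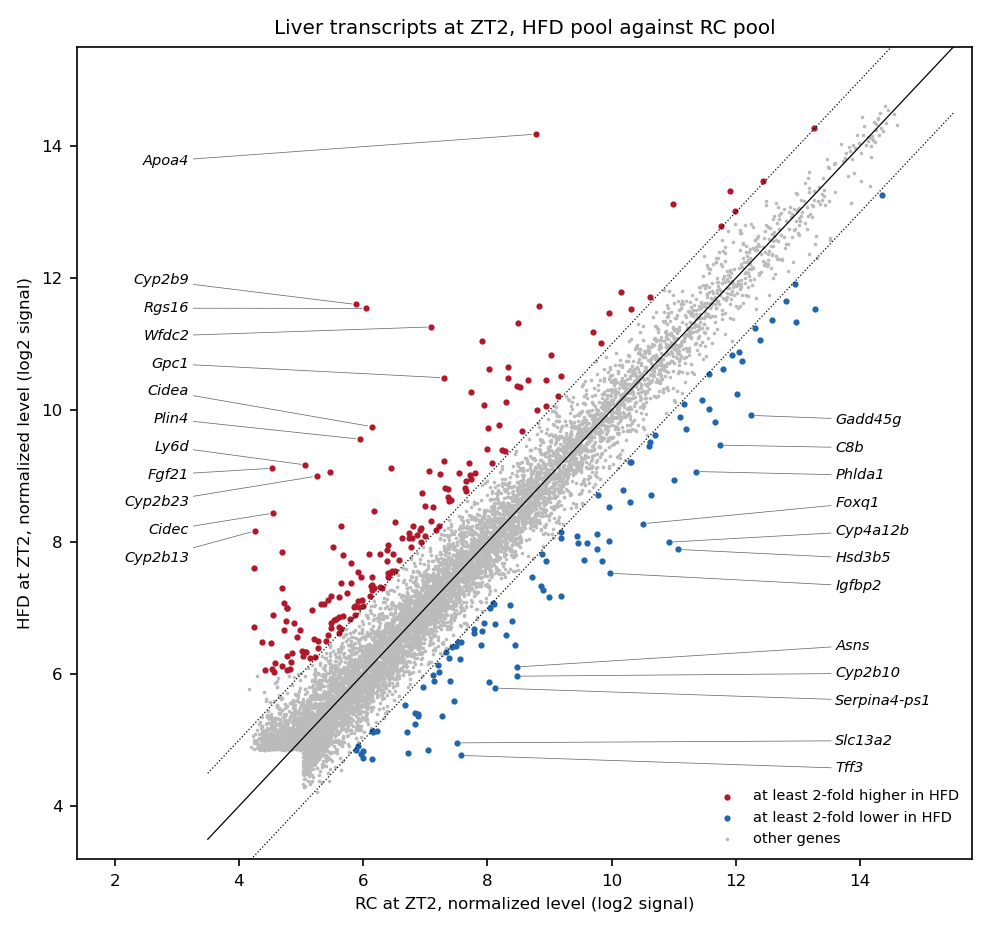
Normalized log2 level of each of the 8802 genes in the HFD pool (vertical) against the RC pool (horizontal) at ZT2, with the 12 highest and 12 lowest differences named. The solid line is equality and the dotted lines are 2-fold; points are measured levels, and genes undetected on 1 array were coloured by their bound. Apoa4 stands at 14.18 in HFD and 8.78 in RC, and most genes lie within the dotted lines.

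Of the genes named here, Cyp2b9, Rgs16 and Apoa4 lay farthest above chow. Cyp2b9, a cytochrome P450 of the CYP2B family that is female-biased in mouse liver, stood at 11.60 in HFD and 5.89 in RC, which is 52.2-fold. Rgs16, a regulator of G protein signalling that follows fasting and refeeding in liver, stood at 11.54 in HFD and 6.05 in RC, 45.0-fold. Apoa4, an apolipoprotein of triglyceride-rich particles, stood at 14.18 in HFD and 8.78 in RC, 42.2-fold, and its HFD level lay 0.41 below the top of the scale, where differences are compressed. Cyp2b9 and Rgs16 were detected but low in RC, whereas Apoa4 was well above background there, and all 3 stood in the upper part of the scale in HFD.

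The secreted and surface proteins Wfdc2 and Ly6d, which are best known from epithelia, came next. Wfdc2 stood at 11.26 in HFD and 7.10 in RC, and Ly6d at 9.17 in HFD and 5.07 in RC, 17.8-fold and 17.1-fold. Fgf21, a fasting-induced hormone of the liver, reached 9.12 in HFD and was not detected in RC, so that it was at least 17.0-fold higher. Gpc1, a cell-surface heparan sulfate proteoglycan, stood at 10.49 in HFD and 7.30 in RC, 9.13-fold. The CYP2B genes Cyp2b23, at 9.0 in HFD and 5.25 in RC (13.5-fold), and Cyp2b13, at 8.17 in HFD and undetected in RC (at least 8.80-fold), were among the 12 highest as well. Genes of this family are near-identical in sequence; whether their probes bind each other's transcripts was not tested.

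At the other end, several of the 12 lowest genes are male-biased in mouse liver or respond to the xenobiotic receptor CAR. Hsd3b5, a 3-ketosteroid reductase, was 9.06-fold lower, at 7.89 in HFD and 11.07 in RC. Cyp4a12b, a fatty acid hydroxylase, was 7.56-fold lower, at 8.0 in HFD and 10.92 in RC. Cyp2b10, the classic CAR target, was 5.67-fold lower, at 5.97 in HFD and 8.47 in RC, in contrast to its relatives Cyp2b9, Cyp2b13 and Cyp2b23. Serpina4-ps1 (5.07-fold) and C8b, a component of the membrane attack complex (4.81-fold), were lower as well.

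Several of the lowest genes act in growth, stress and transport. Igfbp2, which binds insulin-like growth factors, stood at 7.53 in HFD and 9.97 in RC, 5.42-fold lower, and its other probe gave a log2 difference of -2.71. Gadd45g, a stress-induced regulator of growth arrest, stood at 9.92 in HFD and 12.25 in RC, 5.01-fold lower. Phlda1, a pleckstrin-domain protein, stood at 9.07 in HFD and 11.36 in RC, and the forkhead factor Foxq1 at 8.28 in HFD and 10.51 in RC. Slc13a2, a citrate transporter, was 5.86-fold lower, and the trefoil peptide Tff3, detected in RC at 7.58 and not in HFD, was at least 6.64-fold lower.

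Genes of lipid droplets and other PPAR-gamma targets formed the list with the highest median of the 27 pathway lists examined. Of 16 members 13 were measured. In HFD 8 of them were at least 2-fold higher, against 1.98% of all genes, and 0 at least 2-fold lower. Their median log2 difference was 1.83, ranging from 1.11 without a detection filter to 2.14 under median scaling, and none of the 13 lay below 0, where 47.9% of all genes lay above 0 and 47.5% below. PPAR-gamma is a nuclear receptor that turns on fat storage genes, and its own transcript Pparg was at 9.13 in HFD and 6.45 in RC, 6.40-fold higher. The 3 probes of Pparg disagreed in size, with log2 differences of 0.29 to 2.68. Over the processing alternatives the log2 difference of Pparg ranged from 0.17 to 3.04, so its fold depends on the processing.

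The CIDE proteins and perilipins coat lipid droplets and make them fuse or keep lipases off. Cidea stood at 9.75 in HFD and 6.14 in RC, 12.2-fold, and Cidec at 8.44 in HFD against an undetected level in RC, at least 10.6-fold. Plin4 stood at 9.56 in HFD and 5.95 in RC, also 12.2-fold. G0s2, an inhibitor of the triglyceride lipase ATGL, stood at 10.66 in HFD and 8.33 in RC, 5.03-fold. The lipase Mgll, which completes triglyceride breakdown, was 3.68-fold higher. Markers of fat tissue did not go with this group: of 5 adipocyte markers on the array 1 was detected in HFD and 2 in RC, and Adipoq stood at 5.29 in HFD and 6.07 in RC.

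Fatty acid synthesis lay higher, by less. Of 16 measured genes, 3 were at least 2-fold higher and 0 lower, against 1.98% and 1.2% of all genes. At a 1.5-fold limit 7 were higher and 1 lower, where 6.52% of all genes were higher and 5.27% lower. The list's median was 0.48. Pklr, the liver pyruvate kinase that feeds carbon into lipogenesis, stood at 7.38 in HFD and 5.64 in RC, 3.36-fold. The elongases Elovl6 at 8.95 in HFD and 7.74 in RC and Elovl5 at 13.47 in HFD and 12.44 in RC were 2.31-fold and 2.04-fold higher. The desaturase Fads2 lay just under the limit at 1.98-fold. Fasn, the fatty acid synthase, was detected on the HFD array only and close to background, so no fold is given.

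In triglyceride synthesis no gene of 8 reached 2-fold. Against 6.52% of all genes, 4 of the 8 were at least 1.5-fold higher. These were the acyltransferase Gpam (0.80 on the log2 scale), the glycerol-3-phosphate dehydrogenase Gpd1 (0.75) and the phosphatidate phosphatases Lpin2 (0.72) and Lpin1 (0.67). The list's median was 0.29.

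Fatty acid oxidation and PPAR-alpha targets, the set that chow-fed mice raise in fasting, lay higher too. Of 18 measured members 5 were at least 2-fold higher, against 1.98% of all genes, 0 were lower, and the median was 0.60. Beside Fgf21 these were the peroxisome division factor Pex11a, at 11.47 in HFD and 9.96 in RC (2.83-fold), the ketone body enzyme Bdh1, at 11.53 in HFD and 10.31 in RC (2.32-fold), and the receptor itself. Ppara stood at 7.28 in HFD and 6.14 in RC, 2.20-fold. The fifth was the peroxisomal thiolase Acaa1b, at a log2 difference of 1.01. The 4 probes of Pex11a ranged from 1.01 to 1.53.

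Among 11 lipoprotein genes Apoa4 stood apart from the rest of its list. The others lay at -0.34 or above, up to 0.83 for Apoa5, which activates lipoprotein lipase, and the list's median was 0.20. Mttp, which loads lipid onto apolipoprotein B, stood at 7.76 in HFD and 7.40 in RC.

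Cholesterol synthesis genes, the targets of SREBP-2, leaned lower. Of 16 measured members 13 lay below 0 and 2 above, with a median of -0.29, which turned to above 0 under median scaling. The sterol reductase Tm7sf2 was the 1 member past 2-fold, at 7.08 in HFD and 8.09 in RC. Pmvk and Mvd, enzymes of the mevalonate pathway, followed at -0.85 and -0.63. In bile acid synthesis and transport the 14 measured genes were split evenly, 7 above and 7 below 0. Cyp7b1, the oxysterol hydroxylase of the alternative pathway, was 2.58-fold lower, at 10.74 in HFD and 12.10 in RC. Cyp7a1, the rate-limiting enzyme of the main pathway, stood at 9.18 in HFD and 10.03 in RC (1.81-fold lower), while the phospholipid exporter Abcb4 lay at 0.87 and the bile acid receptor Nr1h4 at 0.76.

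**Figure D2:**
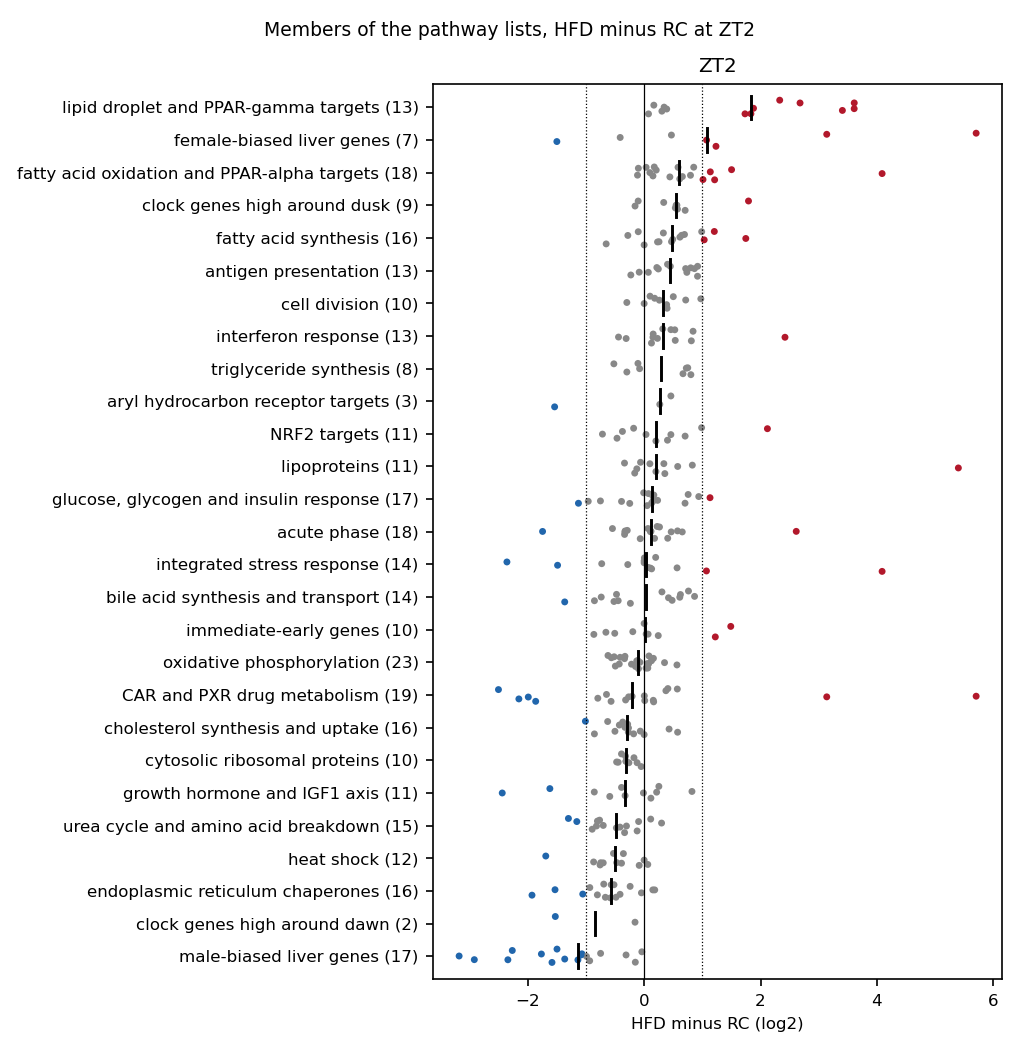
Log2 difference HFD minus RC at ZT2 for each measured member (points) of the 27 pathway lists, ordered by median (black bars), with the number measured in brackets; dotted lines mark 2-fold and coloured points lie beyond them. The lipid droplet list has the highest median at 1.83 and the male-biased list the lowest at -1.14.

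The clock transcripts at ZT2 differed in opposite directions. Arntl, which encodes the activator BMAL1 and peaks near dawn, stood at 5.36 in HFD and 6.89 in RC, 2.88-fold lower. Over the processing alternatives its log2 difference ranged from -2.02 to -0.96. Of 6 genes high around dawn 2 were measured, Arntl and Clock. Dbp, a D-box factor driven by BMAL1 and CLOCK that peaks in the afternoon, stood at 10.45 in HFD and 8.66 in RC, 3.47-fold higher. Of 9 measured genes that are high around dusk, 1 was at least 2-fold higher, against 1.98% of all genes, and 0 lower. Above 0 lay 7 of the 9, and the list's median was 0.55. Per1 lay at 0.70, Nr1d2 at 0.57, Bhlhe40 at 0.56, Tef at 0.55, Ciart at 0.54 and Per2 at 0.34. Nr1d1, encoding REV-ERB-alpha, at -0.10, Cry2 at -0.16 and Clock at -0.16 differed least.

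At ZT14, with other pools, the same genes lay mostly the other way. Arntl stood at 6.26 in HFD and 5.85 in RC, and Dbp at 8.44 in HFD and 9.23 in RC. Ciart was 3.15-fold lower, at 5.80 in HFD and 7.45 in RC, and Nr1d2 and Per2 were 2.28-fold and 2.09-fold lower. Ciart thus stood at 5.82 at ZT2 and 5.80 at ZT14 in HFD, and at 5.29 at ZT2 and 7.45 at ZT14 in RC. Apart from the last, these levels were dim, as the lowest detected probe stood at 4.85 to 5.12 on these arrays. Per2 stood at 7.55 at ZT2 and 8.73 at ZT14 in HFD, and at 7.21 at ZT2 and 9.79 at ZT14 in RC, so the levels of both genes were farther apart between the times in chow. The change between times was not tested, having 1 pool for each diet and time.

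**Figure D3:**
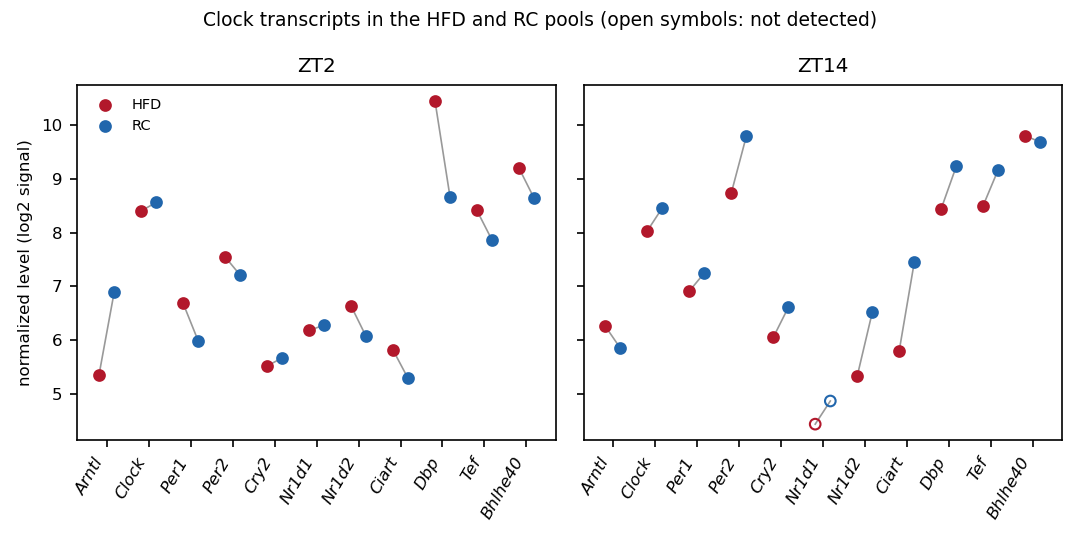
Normalized log2 level of 11 clock transcripts in the HFD pool (left of each pair) and the RC pool (right) at ZT2 and ZT14, each point being 1 array; open symbols were not detected. At ZT2 Dbp is higher and Arntl lower in HFD, and at ZT14 Ciart, Per2 and Nr1d2 are lower in HFD.

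BMAL1 and CLOCK act through the E-box CACGTG, which is shown here because 7 of the 9 dusk genes lay above 0 at ZT2. Of the 9 measured dusk genes 7 had a promoter in the RefSeq table (build GRCm38.p6), and 3 of these held CACGTG in the 250 bases before a start, on either strand, as did 6.86% of all 27025 genes in the table. The motif was chosen after the values were seen, and a match is a description of the letters only. Tef held a match before another start as well, which is not printed. The other stretches around the matches follow, 5′ to 3′ on the gene's strand, with the E-box in capitals.
Ciart (chr3:95882252-95882359, minus strand): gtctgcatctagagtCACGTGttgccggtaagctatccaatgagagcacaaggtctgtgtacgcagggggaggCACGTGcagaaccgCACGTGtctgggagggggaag
Per1 (chr11:69098768-69098803, plus strand): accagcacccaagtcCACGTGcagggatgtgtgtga
Tef (chr15:81802531-81802566, plus strand): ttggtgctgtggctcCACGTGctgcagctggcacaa
Ciart carries 3 copies within 108 bases.

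Chaperones of the endoplasmic reticulum, which fold secreted proteins, lay lower as a group. Of 16 measured members 3 were at least 2-fold lower, against 1.2% of all genes, and 0 higher. At a 1.5-fold limit 7 were lower, against 5.27% of all genes. In all 14 members lay below 0, and the list's median was -0.57. Creld2, a stress-induced disulfide isomerase, stood at 8.71 in HFD and 10.63 in RC, 3.80-fold lower. Sdf2l1, which works with the chaperone BiP, stood at 7.34 in HFD and 8.87 in RC, 2.89-fold lower. Syvn1, the ubiquitin ligase of ER-associated degradation, stood at 11.25 in HFD and 12.31 in RC, 2.08-fold lower. Hspa5, which encodes BiP, lay at -0.67, and the 2 members above 0 were Xbp1 at 0.18 and Sel1l at 0.15, whose probes ranged from -0.92 to 0.33. At ZT14 the list's median was -1.09 and 11 of the 16 were at least 2-fold lower in HFD, where 2.15% of all genes were; the difference between times was not tested.

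The ER stress response element, CCAAT and CCACG with 9 free bases between them, is bound by NF-Y together with ATF6 or XBP1. It was found, on either strand, in the 250 bases before the start of 8 of the 15 measured members with a promoter in the table, and of 0.13% of all 27025 genes. Like the other motifs it was picked after the values were seen. The element is in capitals below, and reads in reverse (CGTGG first) in Creld2 and Calr.
Creld2 (chr15:88819505-88819553, plus strand): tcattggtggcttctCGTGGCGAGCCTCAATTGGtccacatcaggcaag
Syvn1 (chr19:6046517-6046565, plus strand): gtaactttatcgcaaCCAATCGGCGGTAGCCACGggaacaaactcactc
Hspa5 (chr2:34772010-34772058, plus strand): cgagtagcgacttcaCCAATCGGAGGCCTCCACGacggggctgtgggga
Pdia6 (chr12:17266476-17266524, plus strand): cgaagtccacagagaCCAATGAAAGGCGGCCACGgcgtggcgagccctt
Calr (chr8:84847060-84847108, minus strand): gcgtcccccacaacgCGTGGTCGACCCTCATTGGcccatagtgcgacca
Dnajc3 (chr14:118937812-118937860, plus strand): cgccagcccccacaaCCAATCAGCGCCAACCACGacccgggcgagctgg
The log2 differences at ZT2 were -1.93 for Creld2, -1.05 for Syvn1, -0.67 for Hspa5, -0.57 for the disulfide isomerase Pdia6, -0.52 for the lectin chaperone Calr and -0.41 for the co-chaperone Dnajc3. The other 2 members with the element, not printed, were Derl3 at -0.93, undetected in HFD, and Hsp90b1 at -0.48. All 8 lay below 0, as did 14 of the 16 members of the list, and Sdf2l1 had no match in this window.

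Heat shock genes, counted with the mitochondrial chaperone genes Hspd1 (-0.39) and Hspe1 (-0.70), lay mostly below 0 as well. Of 12 measured members 1 was at least 2-fold lower, against 1.2% of all genes, and 0 higher. At a 1.5-fold limit 5 were lower, against 5.27% of all genes, and the list's median was -0.50. Hsph1, a nucleotide exchange factor of HSP70, stood at 8.61 in HFD and 10.30 in RC, 3.23-fold lower. Stip1 (-0.87), Dnajb1 (-0.76) and Hsp90aa1 (-0.75), which form the HSP70 and HSP90 relay, followed.

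Targets of the integrated stress response were split, and their median was 0.04. ATF4 is the factor that this response induces when amino acids are short or the ER is stressed. Asns, the asparagine synthetase gene, stood at 6.11 in HFD and 8.47 in RC, 5.13-fold lower, and its other probe gave -1.88. Cth, which makes cysteine from cystathionine, was 2.80-fold lower, at 7.98 in HFD and 9.46 in RC. Against these stood Fgf21, at least 17.0-fold higher, and the stress protein Nupr1, at 7.18 in HFD and 6.11 in RC, 2.10-fold higher. Asns, Fgf21 and Nupr1 all carry the core of the amino acid response element, TGATGNAA, within 250 bases before the start, as do 5 of the 12 measured members with a promoter and 3.91% of all genes in the table. In capitals below, it reads forward in Asns and in reverse in Fgf21 and Nupr1.
Asns (chr6:7693210-7693247, minus strand): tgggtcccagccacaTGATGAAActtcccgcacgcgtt
Fgf21 (chr7:45615607-45615644, minus strand): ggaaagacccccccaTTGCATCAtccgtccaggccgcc
Nupr1 (chr7:126625558-126625595, minus strand): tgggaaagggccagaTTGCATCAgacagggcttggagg
The 3 printed genes thus differed in direction. The other members with the core, not printed, were Chac1 at 0.2 and Atf3, undetected in RC, at a bound of 0.0.

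Genes that are higher in the livers of male mice had the lowest median of the 27 lists, at -1.14. Of 17 measured members 11 were at least 2-fold lower in HFD, against 1.2% of all genes, 0 were higher, and all 17 lay below 0. Beside Hsd3b5, Cyp4a12b, Serpina4-ps1 and C8b, which are among the 12 lowest, the fatty acid elongase Elovl3 stood at 6.81 in HFD and 8.39 in RC. Of 7 measured female-biased genes 4 were at least 2-fold higher and 1 lower, against 1.98% and 1.2% of all genes. The median of this list was 1.07 and ranged from 0.08 to 1.46 over the processing alternatives. Cyp2b9 and Cyp2b13 were the highest, and the neurotrophin receptor gene Ntrk2, undetected in RC, was at least 2.35-fold higher. Cyp2a4, a steroid hydroxylase, went the other way, at 5.90 in HFD and 7.40 in RC, 2.83-fold lower. Growth hormone secretion sets the sex bias of these genes through STAT5. In that axis Cish and Socs2, STAT5-induced inhibitors, lay at -1.62 and -0.86, Stat5a at 0.82 with 2 probes of opposite sign, and Igfbp2 at -2.44. Of the 11 measured members 2 were at least 2-fold lower, against 1.2% of all genes, 0 were higher, and the median was -0.33.

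Drug metabolism genes under CAR and PXR were split, with 9 of 19 measured above 0 and 10 below. At a 1.5-fold limit 2 were higher and 6 lower, against 6.52% and 5.27% of all genes. The 2 higher ones, Cyp2b9 and Cyp2b13, were past 2-fold, against 1.98% of all genes, and belong to the female-biased list as well. At least 2-fold lower were 4, against 1.2% of all genes. The lower ones were Cyp2b10, Cyp2c54 at 5.88 in HFD and 8.03 in RC, Cyp2c29 at -1.99 and Cyp2c55 at -1.86. The list's median of -0.21 changed sign under median scaling. Cyp1a2, the caffeine-metabolizing target of the aryl hydrocarbon receptor, stood at 10.02 in HFD and 11.56 in RC, 2.90-fold lower, while the other targets Nqo1 at 0.46 and Ugt1a6a at 0.27 lay above 0, the probes of the second gene ranging from -0.42 to 0.27. Among 11 NRF2 targets the carbonyl reductase gene Cbr3 was 4.34-fold higher, at 7.80 in HFD and 5.68 in RC, and the median was 0.20.

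Enzymes that dispose of amino acid nitrogen lay lower. Of 15 measured urea cycle and amino acid breakdown genes 2 were at least 2-fold lower, against 1.2% of all genes, and 0 higher. At a 1.5-fold limit 7 were lower, against 5.27% of all genes, and the list's median was -0.48. Agxt, the glyoxylate aminotransferase, stood at 10.15 in HFD and 11.45 in RC, 2.46-fold lower. Cps1, which commits ammonia to the urea cycle, stood at 11.65 in HFD and 12.80 in RC, 2.23-fold lower, and Hal and Ass1 followed at -0.89 and -0.82. In glucose metabolism and insulin response 1 of 17 was at least 2-fold higher and 1 lower, against 1.98% and 1.2% of all genes. Pck1, which commits carbon to gluconeogenesis, stood at 5.99 in HFD and 7.12 in RC, and the glucose transporter gene Slc2a2 at 10.07 in HFD and 8.94 in RC, each 2.19-fold. The insulin receptor substrate Irs2 lay at -0.96 and the glycogen synthase Gys2 at 0.94.

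At ZT2 markers of lipid-laden macrophages were higher, while a list of Kupffer cell and general macrophage markers differed little. Of 8 measured lipid-associated macrophage markers 4 were at least 2-fold higher, against 1.98% of all genes, and 0 lower, with a median of 1.1. Gpnmb, a lysosomal glycoprotein, stood at 7.85 in HFD and was not detected in RC, at least 7.05-fold higher. Cd63, at 9.08 in HFD and 7.06 in RC (4.08-fold), the lectin gene Lgals3, at 9.73 in HFD and 8.01 in RC (3.29-fold), and the lipid receptor gene Trem2, at 6.34 in HFD and 5.08 in RC (2.40-fold), were the others. The probes of Cd63 ranged from 0.9 to 2.03. Of 12 Kupffer cell and macrophage markers 0 reached 2-fold either way, the median was 0.18, and Vsig4 at 0.62 was the highest. At ZT14 the median of these 12 was 0.74, and 5 were at least 2-fold higher, against 3.75% of all genes. In a bulk sample, more cells of a type and more RNA in each cell cannot be told apart.

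Antigen presentation genes lay moderately higher, with 0 of 13 at 2-fold and a median of 0.45. At least 1.5-fold higher were 6, against 6.52% of all genes. The class II genes H2-Ab1 and Cd74 lay at 0.92 each, H2-DMa at 0.86 and H2-Eb1 at 0.80. In the interferon list 1 of 13 was at least 2-fold higher, against 1.98% of all genes, and 0 lower, with a median of 0.32. The ubiquitin-like modifier Ubd was 5.35-fold higher, at 7.93 in HFD and 5.51 in RC, and the guanylate-binding genes Gbp2 and Gbp3 lay at 0.84 and 0.81, while Isg15 and Irf1 lay at -0.44 and -0.31. Among 18 acute phase genes Lcn2, which binds bacterial iron carriers, was 6.12-fold higher, at 10.63 in HFD and 8.02 in RC. The iron hormone gene Hamp was 3.35-fold lower, at 11.53 in HFD and 13.28 in RC, and the list's median was 0.11. The neutrophil genes S100a8 and S100a9 were 3.32-fold and 2.14-fold higher, with 3 of 8 neutrophil markers on the array detected in HFD and 2 in RC.

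Stellate cell and fibrosis markers had a median of 0.61 over 12 measured, with 1 at least 2-fold higher, 6 at least 1.5-fold higher and 0 lower at either limit. Of all genes 1.98% and 6.52% were higher at these limits, and 1.2% and 5.27% lower. Timp1, an inhibitor of matrix metalloproteinases, was undetected in RC and at least 2.72-fold higher in HFD. Acta2, the smooth muscle actin of activated stellate cells, lay just under the limit at 1.99-fold, with probes from -0.25 to 1.0. Dcn and Lum, proteoglycans of collagen matrix, lay at 0.99 and 0.96, with their lowest probes at 0.44 and 0.36. The collagen gene Col1a1 was undetected in RC and close to background in HFD, with a bound of 0.0. Col4a1 lay at 0.68, while Col1a2 and Col3a1 were detected on neither array. Of 11 collagen genes counted by symbol 0 were past 2-fold, with a median of 0.17.

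Hepatocyte markers lay mostly lower at ZT2, with a median of -0.34 over 8 measured. Below 0 lay 7 of them, with Cps1 lowest at -1.16 and the near-background albumin probe counted at -0.52. The part of these markers in the lower hepatocyte gene groups, and that of the higher macrophage and stellate markers, was not tested. The cholangiocyte marker Sox9 stood at 7.76 in HFD and 8.74 in RC, 1.97-fold lower. None of 10 endothelial markers reached 2-fold, with Lyve1 highest at 0.82, and red blood cell markers lay between -0.62 and -0.50. Of 8 exocrine pancreas markers on the array 2 were detected in HFD and 3 in RC. Skeletal muscle markers had a median of 0.08 at ZT2 over 11 measured, with the tropomyosin gene Tpm2 at 1.72. At ZT14 the muscle median was -2.07, with 10 of 11 at least 2-fold lower in HFD and Acta1 at 7.58 in HFD and 10.12 in RC. Muscle transcripts thus ran high in the RC pool of ZT14, and their part in other ZT14 differences was not tested. At ZT2, 11 of 15 muscle markers on the array were detected in HFD and 7 in RC.

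**Figure D4:**
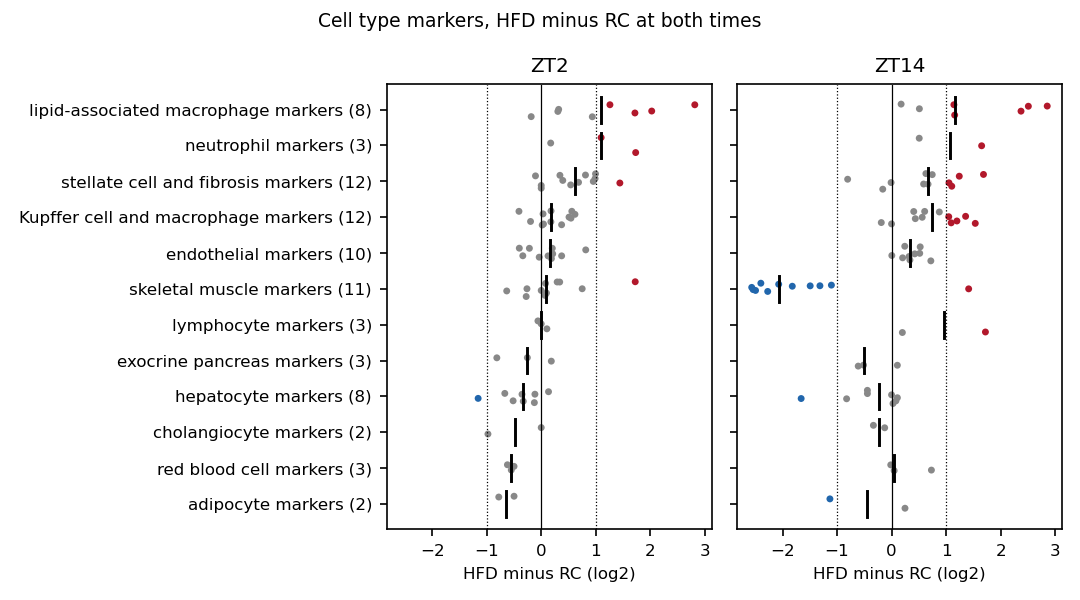
Log2 difference HFD minus RC for measured markers of 12 cell types at ZT2 (left) and ZT14 (right), with medians as black bars and the number measured at ZT2 in brackets; dotted lines mark 2-fold. Lipid-associated macrophage markers have a median of 1.1 at ZT2, and skeletal muscle markers have medians of 0.08 at ZT2 and -2.07 at ZT14.

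Oxidative phosphorylation and ribosomal protein genes gave no 2-fold difference. Of 23 oxidative phosphorylation genes 0 reached 2-fold, their range was -0.62 to 0.56 and their median was -0.11, which turned above 0 under median scaling. The 10 cytosolic ribosomal proteins lay between -0.47 and -0.05, all below 0, with a median of -0.31 (-0.42 to -0.08 over the processing alternatives) and 0 at 1.5-fold. Cell division genes had 0 of 10 at 2-fold at ZT2 and a median of 0.32, with Mcm2 at least 1.96-fold higher. At ZT14 their median was 1.11 and 7 of 10 were at least 2-fold higher in HFD, where 3.75% of all genes were. Among 10 immediate-early genes 2 were at least 1.5-fold higher and 2 lower at ZT2, against 6.52% and 5.27% of all genes. The median of this list was 0.02. Jun and Klf6, transcription factors of the early stress and growth response, were 2.81-fold and 2.33-fold higher, while Dusp1 lay at -0.86, Egr1 at -0.66 and Junb at -0.51.

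The ZT14 pair was then used to ask which of these differences were shared by the early night. Of the 174 genes at least 2-fold higher at ZT2, 122 (70.1%) were also at least 2-fold higher at ZT14, 172 had the same sign there and 2 the opposite one. Of the 106 lower genes 65 (61.3%) were at least 2-fold lower at ZT14, 97 had the same sign, 7 the opposite one and 2 had no measured difference. The 122 and 65 genes were 40% of the 305 higher and 37.1% of the 175 lower genes of ZT14, which in turn were 3.75% and 2.15% of the genes measured there. These ZT14 counts cover only genes detected on a ZT2 array, so genes detected at ZT14 alone are left out. At a 1.5-fold limit 10.3% of all genes were higher at ZT14 and 7.07% lower. The pools of the 2 times were separate, and the difference between times has no test.

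Within 1.5-fold at ZT14 were 17 of the higher and 21 of the lower genes, 11 and 17 of them with detection on both ZT14 arrays. Of the higher ones, Wdfy1, an endosomal protein, was 3.0-fold higher at ZT2, at 7.38 in HFD and 5.80 in RC, and lay at 0.16 at ZT14. Ppara lay at 1.14 at ZT2 and -0.10 at ZT14. The collagenase gene Mmp13, undetected in RC at both times, was at least 3.10-fold higher at ZT2 and at least 1.25-fold higher at ZT14, so its ZT14 value is only a bound.

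Among the lower ones, Arntl and Elovl3 were joined by Xlr4a, an X-linked gene of unsettled function, which stood at 7.19 in HFD and 9.19 in RC at ZT2 and at 9.02 in HFD and 8.6 in RC at ZT14. The tetherin gene Bst2, which holds budding virus particles at the cell surface, lay at -1.64 at ZT2 and 0.10 at ZT14. Cish lay at -1.62 at ZT2 and -0.51 at ZT14, and Cyp2c55 at -1.86 and -0.44. For Elovl3 the RC level differed more between the times than the HFD level: it stood at 6.81 at ZT2 and 6.88 at ZT14 in HFD, and at 8.39 at ZT2 and 6.86 at ZT14 in RC.

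Among the gaps between times were genes that were past 2-fold at ZT2 and still differed at ZT14. Cidea was 12.2-fold higher at ZT2 and 1.65-fold higher at ZT14, where it stood at 8.66 in HFD and 7.93 in RC. Rgs16 was 45.0-fold higher at ZT2 and 9.09-fold at ZT14. Mfsd2a, a lysophospholipid transporter, stood at 11.05 in HFD and 7.92 in RC at ZT2 (8.73-fold) and at 11.32 in HFD and 9.88 in RC at ZT14 (2.72-fold). G0s2 was 5.03-fold and 1.74-fold higher. In Cidea, Mfsd2a and G0s2 the RC level was lower at ZT2 than at ZT14 by more than the HFD levels differed. By contrast Cyp2b9 was 52.2-fold higher at ZT2 and 54.5-fold at ZT14, and Igfbp2 5.42-fold and 5.62-fold lower. Apoa4 was 42.2-fold and 45.0-fold higher, with HFD levels near the top of the scale at both times, so its folds cannot be compared between them.

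**Figure D5:**
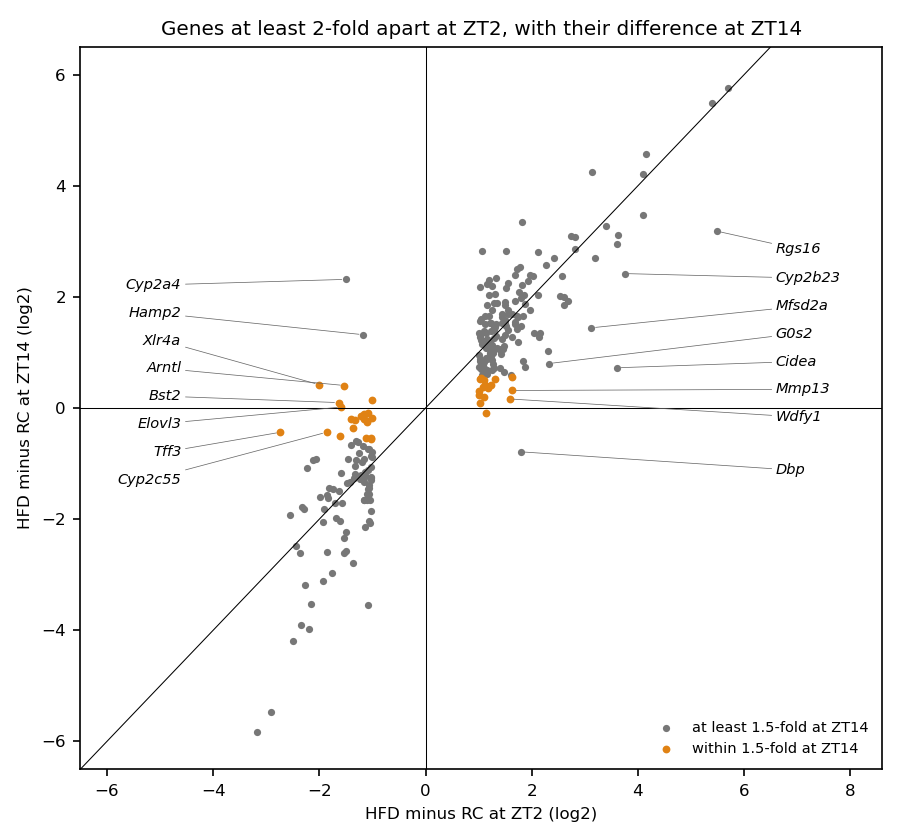
Log2 difference HFD minus RC at ZT14 (vertical) against that at ZT2 (horizontal) for the genes at least 2-fold apart at ZT2 that had a ZT14 value; the diagonal is equality, orange points lie within 1.5-fold at ZT14, and the 8 higher and 8 lower genes farthest from the diagonal towards or past 0 are named. Dbp, Cyp2a4 and Hamp2 lie on opposite sides of 0 at the 2 times by over 1.5-fold.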

How the data were processed

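Liver RNA pools were measured on 6 Illumina bead arrays. Per the file headers, the unnormalized table the authors deposited holds each probe's mean bead intensity and its detection p-value. The authors' processed intensity values, made with GenomeStudio per the submitters' processing notes, had a median of 3.5 in both ZT2 columns, and from the values they are linear, background-subtracted and quantile normalized; the amount subtracted and the centring are unknown. Each processed column matched its own array (r = 0.989 to 0.992 after probe means were removed, against at most 0.304 for other arrays, over 11487 probes).

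All 6 arrays were corrected and normalized with neqc (limma 3.58.1, R 4.3.3; offset 16, quantile, log2), and checked on simulated data. Probes with detection p under 0.01 on at least 1 ZT2 array were kept (14895, of which 2030 had no single symbol). Of 34885 probes with 1 symbol, 34807 matched a gene identifier of GRCm38.p6, while 18 had several symbols and 10378 none. The brightest probe over the 6 arrays stood for a gene, which applied to 2941 genes with several. A gene undetected on 1 array was set against the higher of its own value and the dimmest detected probe there. No p-values were computed. Of 561 members in 39 gene lists, 412 were measured. The genes named were the 12 highest and 12 lowest, the 4 largest by size of each list, all clock genes, and the 8 higher and 8 lower genes farthest from their ZT14 value; others were chosen after their values were seen. The gene lists and this comparison were chosen with earlier results of these data known. Alternatives covered the arrays normalized together, scaling, background, offset, detection filter, probe choice, bounds and fold limit.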

Additional observations from a re-analysis of the deposited data

Results flagged for a closer look

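For 7 of the named genes the HFD pool lay on opposite sides of the RC pool at ZT2 and ZT14, by at least 1.5-fold at both times. With 1 pool for each diet and time the difference between times was not tested. Cyp2a4, a female-biased steroid hydroxylase, lay at -1.50 at ZT2 and 2.32 at ZT14 (log2, HFD minus RC). Hamp2, a paralogue of the hepcidin gene, lay at -1.17 and 1.32, while Hamp itself was lower at both times. The early growth response gene Egr1 lay at -0.66 and 2.71, and the phosphatase gene Dusp1, another immediate-early gene, at -0.86 and 0.60. Dbp lay at 1.79 and -0.79, and Lpin1, a phosphatidate phosphatase with a daily rhythm in liver, at 0.67 and -0.91. The muscle actin gene Acta1 lay at 0.75 at ZT2, where it was undetected in RC and the value is a bound, and at -2.54 at ZT14.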

How the results depend on the processing

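No paired analysis was possible because each diet and time had 1 array and the labels give no replicate numbers; no replicate could be left out either. Of the 73 named genes past 2-fold, 0 turned in sign under any of the 11 alternatives, and 63 to 73 stayed past it except with the filter for detection on both arrays, where 65 of 65 tested did. Median scaling moved the median of all genes to 0.34 at ZT2 and 0.20 at ZT14, and gave 461 genes higher and 56 lower, 243 and 38 at both times, and 100 and 8 within 1.5-fold at ZT14. Re-centred on that median, an alternative chosen after seeing the data, it gave 172 and 108. Without background correction 110 genes were higher and 69 lower, with 6 and 11 within 1.5-fold at ZT14. With the authors' processed values the counts were 275 and 184, with 41 and 45. An offset of 50 gave 115 higher, with 8 higher and 13 lower within 1.5-fold at ZT14, and detection on both arrays left 11 higher there. At a 1.5-fold limit 574 genes were higher and 464 lower. List medians near 0 changed sign: cholesterol synthesis, CAR and PXR and oxidative phosphorylation under median scaling, bile acids and acute phase after re-centring, bile acids and aryl hydrocarbon receptor targets without a detection filter, and immediate-early genes with detection on both arrays. Dim genes limit the reading: 2-fold higher and lower differences made up 1.23% and 0.443% of the dimmest 2934 genes. They made up 2.73% and 1.3% of the middle 2934, and 1.98% and 1.87% of the brightest 2934. Of 56 higher and 31 lower genes with several detected probes, all probes had 1 sign in 55 and 31, and all were past 2-fold in 19 and 24.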

Other observations

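Cytochromes P450 as a family, counted by symbol after the values were seen, held many of the lower genes at ZT2. Of 52 measured P450 genes 14 (26.9%) were at least 2-fold lower in HFD and 3 (5.77%) higher, where 1.2% and 1.98% of all genes were. Apart from those in the lists, the lower ones included Cyp26a1, which clears retinoic acid, at -1.49, the arachidonic acid epoxygenase gene Cyp2c23 at -1.33, Cyp2d13 at -1.25, Cyp4f14 at -1.16 and Cyp2c70, which makes muricholic acids in mice, at -1.04. The glutathione transferases gave 0 of 19 past 2-fold and the UDP-glucuronosyltransferases 1 of 14, Ugt2b1 at -1.42.

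Some genes of calcium-binding protein families were past 2-fold higher. Of 7 annexins Anxa2, at 11.57 in HFD and 8.83 in RC (6.69-fold), and Anxa5 at 1.64 were past 2-fold, with a family median of 0.27, though the probes of Anxa2 ranged from 0.79 to 2.74. Of 9 S100 genes, which ranged from -0.53 to 2.12, 3 were, led by S100a11 at 10.08 in HFD and 7.95 in RC. Among all genes 1.98% were at least 2-fold higher. Outside these families, the galectin gene Lgals1 stood at 11.32 in HFD and 8.50 in RC, 7.07-fold higher. Serpina7, the thyroxine-binding globulin gene, was 5.83-fold higher, the vesicular glutamate transporter gene Slc17a8 6.10-fold and the activin subunit gene Inhbe 4.93-fold. Among lower genes outside the lists, Etnppl, which breaks down phosphoethanolamine, was 4.36-fold lower, Enho, which encodes adropin, 3.75-fold, the nicotinamide methyltransferase gene Nnmt 3.10-fold and the vasopressin receptor gene Avpr1a 3.56-fold. Proteasome subunits (33 genes, -0.53 to 0.95) and aminoacyl-tRNA synthetases (27 genes, -0.67 to 0.72) gave 0 past 2-fold.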
